A study of Mus musculus with 23 samples.

Results

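The 8 genes described here encode 3 families of neuronal RNA-binding proteins that regulate alternative splicing: Rbfox1, Rbfox2 and Rbfox3, Nova1 and Nova2, and Ptbp1, Ptbp2 and Ptbp3. They were chosen by symbol, as members of these families. They are 8 of the 45706 gene IDs in the count table, and all 8 were among the 18823 genes that passed the filter on low counts and were tested.

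Rbfox proteins bind the RNA element GCAUG and promote or repress nearby exons depending on their position, within a larger complex of splicing factors. Nova proteins bind YCAY clusters and shape the transcripts of inhibitory synapse genes, and Ptbp proteins bind pyrimidine-rich RNA and mostly repress exons. During neuronal differentiation Ptbp1 is silenced and its paralog Ptbp2 takes over, while Rbfox3, known as the antigen NeuN, is used as a marker of mature neurons.

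Polyadenylated RNA of the mouse hippocampus was sequenced in 23 libraries from 3 neuronal populations, named CamK, Grik and SST. CamK and Grik libraries are labelled as excitatory pyramidal cells, SST libraries as somatostatin-positive interneurons, and the study's design speaks of CA1 and CA3 for the excitatory cells. Each population came as wild type (WT) and as a conditional knockout (cKO) of Slm2, an RNA-binding protein encoded by Khdrbs3. The groups held 4 CamK WT, 3 CamK cKO, 4 Grik WT, 4 Grik cKO, 4 SST WT and 4 SST cKO libraries. The sources used here do not give the strain, the age, the driver of the deletion, the deleted exons or the way the cells or their RNA were isolated. The labels do not say whether the libraries of a group came from separate animals, so p-values measure the spread between these libraries, which may be technical.

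The libraries held 87612006 to 112993538 reads in genes, and markers set the populations apart. Among WT libraries, Slc17a7, the vesicular glutamate transporter of excitatory neurons, stood at 855 to 1821 counts per 1000000 reads (CPM) in CamK and Grik and at 67.7 to 121 CPM in SST. Gad1, the GABA-synthesising enzyme, stood at 2546 to 3087 CPM in SST WT and at no more than 87.3 CPM in CamK and Grik WT. Summed over 5 genes each, CA1 markers came to 1172 to 1611 CPM in CamK WT, 63.2 to 99.4 in Grik WT and 393 to 408 in SST WT. CA3 markers came to 512 to 664, 1456 to 1745 and 231 to 311 CPM. The CA1 marker Wfs1 alone stood at 356 ± 54.7, 24.7 ± 4.45 and 24.4 ± 11.3 CPM in the same order (SD, n = 4 each). Grik4, a CA3 marker, stood at 30.3 ± 4.11, 132 ± 10.7 and 14.7 ± 1.26 CPM. Both sums in SST WT thus came mostly from other genes of the lists. Markers of dentate granule cells, also summed over 5 genes, came to 171 to 375, 186 to 199 and 35.9 to 48.7 CPM in CamK, Grik and SST WT. A sum over 6 genes used as markers of other interneurons, Pvalb, Vip, Cck, Calb2, Lamp5 and Htr3a, was lowest in SST WT (377 to 471, 599 to 761 and 177 to 249 CPM). The levels of its single genes are not given here, so this sum does not measure the share of other interneurons. SST WT replicate 2 stood apart with 159 CPM of Sst, against 554, 1557 and 1720 CPM in the other SST WT libraries, although its Gad1 level of 3087 CPM was the highest of these 4 and its sum over 7 SST interneuron markers, 6822 CPM, lay just under the 6900 to 7646 CPM of the other 3. The comparisons of the 8 genes with SST WT are therefore also given without it. For Khdrbs3, CamK gave 278 ± 25.1 CPM under the label cKO (SD, n = 3) against 373 ± 27.0 CPM in WT (n = 4, adjusted p 0.114), and the cKO level was lower in SST (93.8 ± 10.5 against 130 ± 8.31 CPM, n = 4 each, adjusted p 0.0309), a call that 7 of 15 alternatives lost. The CamK difference passed with DESeq2 (adjusted p 0.00293) and limma-voom (0.0252) among 14 alternatives. In Grik it went against the label, with 414 ± 18.02 CPM in the libraries labelled cKO and 336 ± 8.61 CPM in WT (SD, n = 4 each, adjusted p 0.499), so cKO names a label throughout; with limma-voom, 1 of 15 alternatives, this rise passed (adjusted p 0.0202). A whole-gene count includes exons outside any deleted part. The summed level of 20 markers of astrocytes, oligodendrocytes, microglia and vessel cells, none of which was at 0 throughout a group, was 156 to 245 CPM in CamK WT, 744 to 994 in Grik WT and 372 to 813 in SST WT. In the libraries labelled cKO the sums were 245 to 320, 826 to 1143 and 312 to 1213 CPM. SST WT replicate 2 had the highest such sum (813 CPM) and the highest Slc17a7 level (121 CPM) of SST WT. SST cKO replicate 7 likewise had the highest sum (1213 CPM) and Slc17a7 level (194 CPM) of SST cKO. Its Gad1 level (2032 CPM) and its sum over the SST interneuron markers (5918 CPM) were the lowest of that group.

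Per length of exon, the Rbfox genes had the highest group means, while the Nova and Ptbp genes were interleaved, with Ptbp2 between Nova2 and Nova1 in every group. Levels between genes were compared as reads per kilobase of exon and 1000000 reads (RPKM), over 23 libraries that all carried at least 552 reads of each member. In CamK WT the order was Rbfox1 (148 ± 5.45 RPKM), Rbfox3 (82.4 ± 6.34), Rbfox2 (47.7 ± 3.26), Nova2 (22.01 ± 2.43), Ptbp2 (12.3 ± 0.860), Nova1 (6.19 ± 0.515), Ptbp3 (3.67 ± 0.621) and Ptbp1 (1.45 ± 0.0738; SD, n = 4), and the libraries of no 2 neighbours overlapped. Grik WT had the same order, with overlap between Nova2 (19.2 ± 0.766) and Ptbp2 (17.2 ± 1.84) and between Nova1 (2.91 ± 0.165) and Ptbp3 (2.63 ± 0.315). In SST WT Rbfox2 (47.6 ± 3.25 RPKM) stood above Rbfox3 (23.6 ± 1.32), and Ptbp1 (1.76 ± 0.0939) stood beside Ptbp3 (1.62 ± 0.0817) with overlapping libraries, as did Rbfox3 and Nova2 (22.5 ± 0.889). Among 18720 tested genes with a length, Rbfox1 lay between percentiles 97.03 and 98.9 over the 6 groups, and Ptbp1 between 46.48 and 48.41. Taking the longest transcript as length instead put Ptbp2 above Nova2 in every group and changed no other order among the group means of single genes.

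Most of the 8 genes differed between WT populations, as did a large share of all genes. At an adjusted p under 0.05, 5 of 8 differed between CamK and Grik (background 42.0% of tested genes), 6 of 8 between CamK and SST (background 60.1%) and 6 of 8 between Grik and SST (background 57.3%). In CamK against Grik 3 were higher and 2 lower in CamK (background 20.9 and 21.1%), in CamK against SST 3 were higher and 3 lower in CamK (29.5 and 30.5%), and in Grik against SST 4 were higher and 2 lower in Grik (28.1 and 29.2%). The median absolute log2 fold change of the 8 genes was 0.27, 0.30 and 0.47 in these comparisons, against 0.34, 0.54 and 0.51 over all tested genes. In these WT comparisons the called shares lay above the background and the median sizes below it, but 8 genes are too few to set the families apart. Among libraries labelled cKO, 6, 4 and 6 of 8 were called in the same order (backgrounds 35.7, 56.4 and 57.9%). Median absolute changes there were 0.31, 0.17 and 0.68, against 0.32, 0.53 and 0.53 over all tested genes. The description below concerns which members differed and in which population. In libraries that pool many cells, fewer cells of a type and less RNA per cell cannot be told apart.

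**Figure D1:**
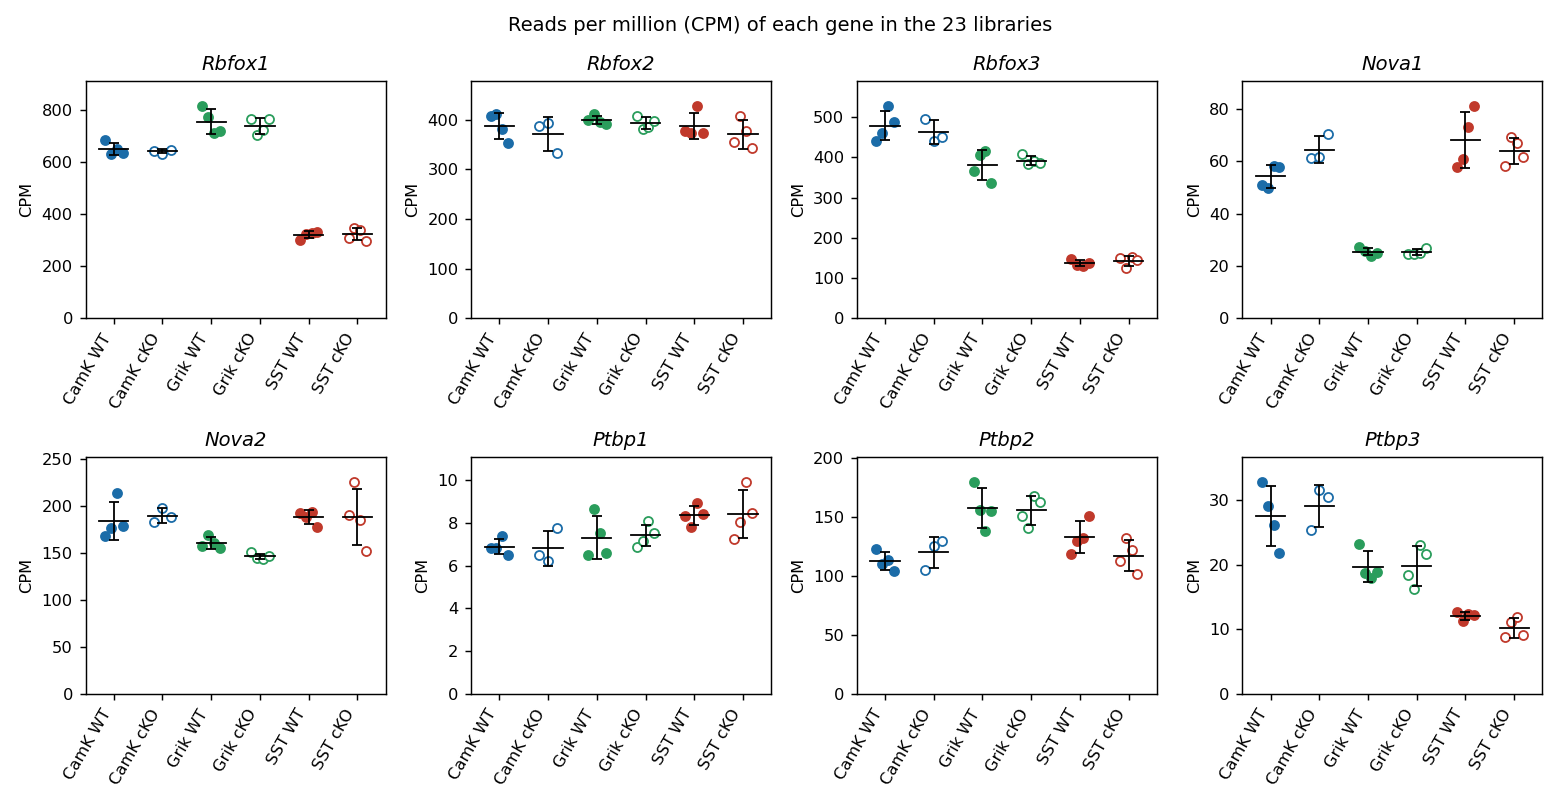
CPM of each gene (y axis, from 0) in every library, by population and genotype (x axis); points are libraries, filled for WT and open for libraries labelled cKO, horizontal lines are means and bars SD. Rbfox1 and Rbfox3 are low in SST, Nova1 is low in Grik, Ptbp3 falls from CamK over Grik to SST, and Rbfox2 lies between 332 and 427 CPM in all 23 libraries.

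Within the Rbfox family, Rbfox1 and Rbfox3 were higher in CamK and in Grik than in SST, whereas Rbfox2 did not pass the test between any of them. Rbfox1 (ENSMUSG00000008658, chr16:5885355-7411526, plus strand), a neuronal and muscle splicing factor, read 302, 323, 328 and 333 CPM in SST WT. In CamK WT it read 630, 636, 650 and 684 CPM, and in Grik WT 711, 721, 773 and 814 CPM. The groups did not overlap, with SST lowest and Grik highest. CamK WT exceeded SST WT by 2.02-fold (log2 fold change 1.02, SE 0.06, adjusted p 3.07e-13) and Grik WT exceeded it by 2.35-fold (1.23, SE 0.06, adjusted p 7.27e-15). Between the excitatory populations CamK WT was lower, with a log2 difference of -0.22 (SE 0.06, adjusted p 0.00534).

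Rbfox3 (ENSMUSG00000025576, chr11:118489762-118911597, minus strand) had the steepest difference from SST among the 8 genes. SST WT libraries read 131, 133, 136 and 148 CPM, CamK WT 441, 462, 487 and 527 CPM, and Grik WT 336, 367, 406 and 415 CPM. No library of one population fell within another's range, and the order of CamK and Grik was the reverse of that for Rbfox1. CamK WT stood 3.50-fold above SST WT (log2 fold change 1.81, SE 0.08, adjusted p 5.88e-16) and Grik WT 2.78-fold above it (1.48, SE 0.08, adjusted p 1.49e-14). Rbfox3 was also higher in CamK WT than in Grik WT, by 0.33 on the log2 scale (SE 0.07, adjusted p 0.000862). Non-neuronal markers moved with the last comparison: 15 of 20 passed the test as lower in CamK WT than in Grik WT and none as higher. With the mean log2 level of these markers as a covariate, the difference in Rbfox3 was 0.24 with an adjusted p of 0.183, and their part in the result was not tested further.

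Rbfox2 (ENSMUSG00000033565, chr15:77078990-77307004, minus strand), the family member expressed in many tissues, stood at 388 ± 26.5 CPM in CamK WT, 400 ± 8.75 CPM in Grik WT and 387 ± 26.4 CPM in SST WT (SD, n = 4 each). The libraries overlapped in each comparison. The 95% intervals of the log2 differences ran from -0.14 to 0.14 for CamK against SST and from -0.09 to 0.19 for Grik against SST, so differences beyond these sizes fell outside the intervals. Over all 6 groups, those labelled cKO included, the highest mean was 1.08-fold the lowest.

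Because Rbfox2 was level while its paralogs were lower in SST, the make-up of the family differed. Summed over the 3 genes, Rbfox transcripts per length came to 278 ± 6.39 RPKM in CamK WT, then 286 ± 13.0 in Grik WT and 144 ± 3.90 in SST WT (SD, n = 4 each). Rbfox2 made up 33.0% ± 1.53 of this sum in SST WT, 17.2% ± 1.17 in CamK WT and 17.2% ± 0.516 in Grik WT. Rbfox1 was the most abundant member, with 53.2% ± 1.49 in CamK WT, then 59.9% ± 2.08 in Grik WT and 50.7% ± 1.54 in SST WT. Rbfox3 made up 29.6% ± 2.11, 22.9% ± 1.96 and 16.4% ± 1.29 in the same order. With the longest transcript as length the sums were 421 ± 10.4, 425 ± 19.8 and 205 ± 4.51 RPKM, and Rbfox2 made up 27.4% ± 1.399 in SST WT, 13.4% ± 0.993 in CamK WT and 13.6% ± 0.422 in Grik WT.

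The promoters of Rbfox1 and Rbfox3 are printed because both genes varied together between the excitatory and inhibitory populations. They come from RefSeq (GRCm38.p6), read 5′ to 3′ on the gene's strand from 250 bases before to 50 bases after an annotated start, with CG dinucleotides in capitals. RefSeq promoters matched 6 of the 8 genes, all but Rbfox2 and Ptbp3. The first Rbfox1 sequence is chr16:5884543-5884842 (plus strand), the second is chr16:7069585-7069884 (plus strand) and starts within the gene, and that of Rbfox3 is chr11:118760992-118761291 (minus strand), which also starts within the annotated gene and not at its 5′ end.
Rbfox1 first promoter: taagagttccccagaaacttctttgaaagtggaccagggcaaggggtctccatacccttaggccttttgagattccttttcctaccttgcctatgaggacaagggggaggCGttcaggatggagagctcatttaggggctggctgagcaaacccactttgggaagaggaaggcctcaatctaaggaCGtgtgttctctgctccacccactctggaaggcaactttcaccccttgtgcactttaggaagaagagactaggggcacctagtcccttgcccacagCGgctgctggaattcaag
Rbfox1 second promoter: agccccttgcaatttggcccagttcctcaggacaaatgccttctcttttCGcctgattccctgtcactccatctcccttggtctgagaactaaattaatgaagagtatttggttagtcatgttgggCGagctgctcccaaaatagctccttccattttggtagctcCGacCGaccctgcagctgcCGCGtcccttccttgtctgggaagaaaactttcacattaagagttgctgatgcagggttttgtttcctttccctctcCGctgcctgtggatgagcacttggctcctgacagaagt
Rbfox3 promoter: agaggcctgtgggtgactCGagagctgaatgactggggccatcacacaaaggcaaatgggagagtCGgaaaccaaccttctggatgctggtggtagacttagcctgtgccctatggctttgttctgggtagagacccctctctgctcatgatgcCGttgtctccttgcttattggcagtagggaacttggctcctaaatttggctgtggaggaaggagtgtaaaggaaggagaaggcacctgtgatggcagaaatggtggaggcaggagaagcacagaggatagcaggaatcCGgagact
The 3 sequences held 3, 7 and 4 CG dinucleotides at 52.7, 50 and 53.0% GC, beside medians of 7 CG dinucleotides and 52.7% GC over 32851 promoters of 300 bases. Searched on both strands, with overlapping matches counted, CAGATG (an E-box; 17.2% of all these promoters) and GGGCGG (a GC box; 35.7%) had no match in any of the 3. CAGCTG (another E-box; 16.3%) had 1 match in the second Rbfox1 promoter and none in the other 2.

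**Figure D2:**
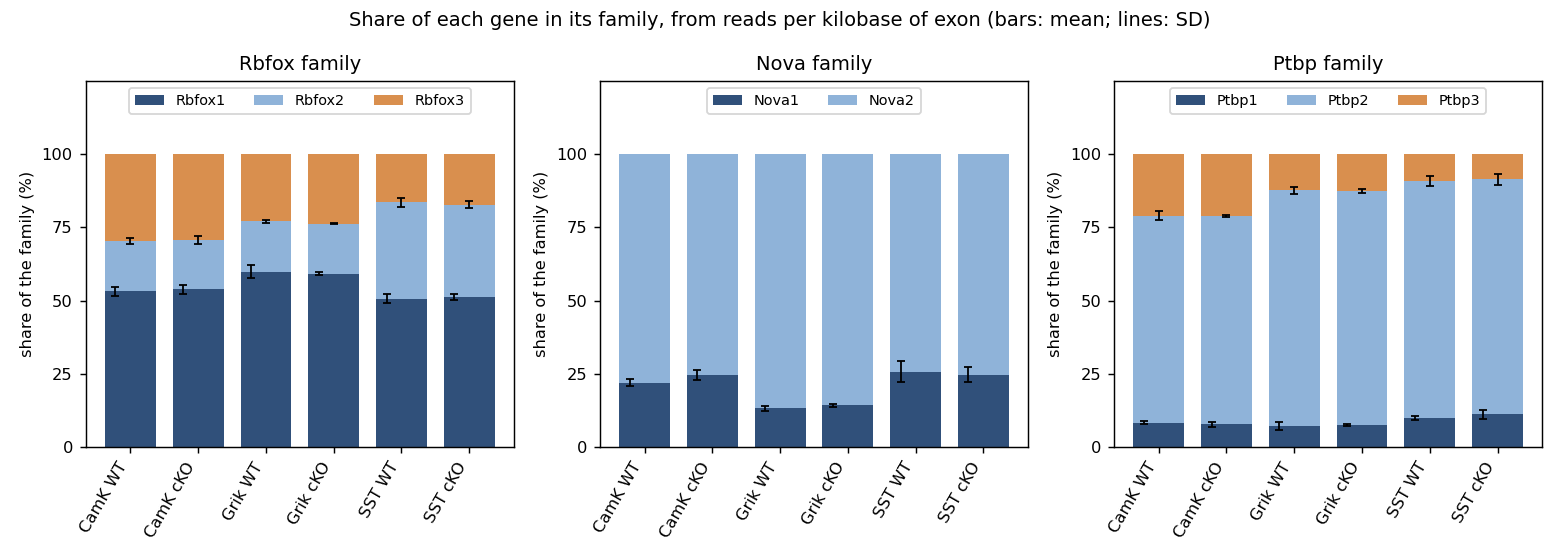
Share of each gene in its family (y axis, percent of the family's summed RPKM, from 0) in the 6 groups (x axis); bars are group means and lines SD over libraries. The share of Rbfox2 is 33.0% in SST WT and 17.2% in CamK WT and Grik WT, Nova1 has its lowest shares in the Grik groups, and Ptbp3 has its highest in the CamK groups.

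Within the Nova family, Nova1 differed more than 2-fold between Grik and both other populations, while Nova2 differed by at most 1.30-fold between group means. Nova1 (ENSMUSG00000021047, chr12:46694517-46818929, minus strand) read 23.9, 24.9, 25.7 and 27.3 CPM in Grik WT. In CamK WT it read 49.6, 51.0, 57.8 and 58.3 CPM, and in SST WT 57.6, 60.8, 73.1 and 80.9 CPM. All Grik libraries were below all others, and CamK and SST overlapped. Grik WT was below SST WT by a log2 difference of -1.42 (SE 0.09, adjusted p 1.53e-12), and CamK WT was above Grik WT by 1.09 (SE 0.09, adjusted p 7.94e-10). CamK WT was below SST WT by -0.33 (SE 0.09, adjusted p 0.00296). Nova1 shares 310 exonic bases with Gm33869 on the same strand, so part of its count is uncertain.

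Nova2 (ENSMUSG00000030411, chr7:18925888-18965319, plus strand), the paralog with the higher level here, stood at 184 ± 20.4 CPM in CamK WT, 161 ± 6.41 CPM in Grik WT and 188 ± 7.44 CPM in SST WT (SD, n = 4 each). Grik WT libraries were all below SST WT libraries, at 155 to 170 against 178 to 194 CPM (log2 fold change -0.23, SE 0.08, adjusted p 0.0252). The call was lost without any one of Grik WT replicates 3, 5 and 6 (adjusted p 0.0767, 0.0575 and 0.0953) or SST WT replicates 1, 2 and 3 (adjusted p 0.0548, 0.0528 and 0.0581). CamK WT was 0.20 above Grik WT on the log2 scale and missed the threshold (SE 0.09, adjusted p 0.0652); without CamK WT replicate 2 the difference was 0.24 and passed it (adjusted p 0.0476), and with the non-neuronal markers as a covariate its sign turned (-0.13, adjusted p 0.475). Against SST, CamK WT differed by -0.03 (95% interval -0.20 to 0.15), and 17 of 20 non-neuronal markers passed the test as lower in CamK WT than in SST WT. With those markers as a covariate this difference became -0.44 (adjusted p 0.0137). A long noncoding RNA, Gm26821, lies on the opposite strand and shares 2652 exonic bases with Nova2, so without the strand setting of the counting the Nova2 counts are uncertain.

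Per length, Nova1 made up 22.01% ± 1.32 of the Nova sum in CamK WT, then 13.2% ± 0.806 in Grik WT and 25.7% ± 3.58 in SST WT (SD, n = 4 each). The Nova sum itself was 28.2 ± 2.82, 22.1 ± 0.777 and 30.3 ± 0.965 RPKM. With the longest transcript as length it was 29.6 ± 2.91, 22.8 ± 0.784 and 32.0 ± 1.17 RPKM. The mean Ptbp sums given below lay under these Nova sums by the union of exons, and above them with the longest transcript. The Nova1 promoter, shown because this gene had the largest difference between the excitatory populations among the 8, is chr12:46818718-46819017 (minus strand, RefSeq, GRCm38.p6, CG dinucleotides in capitals).
Nova1 promoter: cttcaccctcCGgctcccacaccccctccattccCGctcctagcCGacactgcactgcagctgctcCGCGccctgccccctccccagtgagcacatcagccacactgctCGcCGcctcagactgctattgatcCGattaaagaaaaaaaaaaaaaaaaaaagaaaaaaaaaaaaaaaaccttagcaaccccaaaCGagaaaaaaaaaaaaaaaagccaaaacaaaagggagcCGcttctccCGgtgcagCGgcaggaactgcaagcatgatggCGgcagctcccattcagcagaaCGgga
It held 14 CG dinucleotides at 51.7% GC, with 1 match to CAGCTG and none to CAGATG or GGGCGG. The promoter of Nova2 held 17 CG dinucleotides at 71.3% GC, with 2 matches to GGGCGG and none to either E-box.

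Within the Ptbp family, Ptbp2 carried most of the sum per length in every population, Ptbp3 followed a gradient from CamK over Grik to SST, and Ptbp1 was low throughout. Ptbp3 (ENSMUSG00000028382, chr4:59471868-59549364, minus strand), a paralog also called ROD1, read 21.8, 26.2, 29.1 and 32.8 CPM in CamK WT. Grik WT libraries read 18.01, 18.8, 18.8 and 23.2 CPM, and SST WT libraries 11.3, 12.2, 12.4 and 12.7 CPM. SST was below both excitatory populations without overlap, while CamK and Grik overlapped through the highest Grik library. CamK WT stood 2.26-fold above SST WT (log2 fold change 1.18, SE 0.13, adjusted p 1.67e-08) and Grik WT 1.62-fold above it (0.70, SE 0.13, adjusted p 4.13e-05). The difference between CamK WT and Grik WT was 0.48 (SE 0.13, adjusted p 0.00327). The pseudogene 1700018M17Rik shares 207 exonic bases with Ptbp3 on the opposite strand, which leaves part of its count uncertain.

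Ptbp2 (ENSMUSG00000028134, chr3:119718742-119784466, minus strand), the neuronal paralog, read 104, 110, 114 and 123 CPM in CamK WT. In Grik WT it read 139, 155, 156 and 180 CPM, and in SST WT 119, 130, 132 and 151 CPM. Grik lay above CamK without overlap, and SST overlapped both. The CamK minus Grik difference in WT was -0.48 on the log2 scale (SE 0.09, adjusted p 0.000178). CamK WT was lower than SST WT by -0.24 (SE 0.09, adjusted p 0.0317) and Grik WT higher than SST WT by 0.24 (SE 0.09, adjusted p 0.0283), and each call was lost under several alternatives. The first was lost without CamK WT replicate 3, 4 or 5 or SST WT replicate 5 (adjusted p 0.0827, 0.0647, 0.0943 and 0.135), and was -0.30 with an adjusted p of 0.218 with the non-neuronal markers as a covariate. The second was lost without Grik WT replicate 3 or SST WT replicate 1, 2 or 3 (adjusted p 0.112, 0.102, 0.0639 and 0.0528), and with that covariate (0.23, adjusted p 0.0542).

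Ptbp1 (ENSMUSG00000006498, chr10:79854427-79864771, plus strand), the paralog of non-neuronal cells and progenitors, stood at 6.89 ± 0.350 CPM in CamK WT, 7.31 ± 0.999 CPM in Grik WT and 8.36 ± 0.445 CPM in SST WT (SD, n = 4 each). Over all 23 libraries it had 552 to 969 reads. CamK WT libraries, at 6.52 to 7.36 CPM, were all below SST WT libraries, at 7.82 to 8.91 CPM (log2 fold change -0.28, SE 0.11, adjusted p 0.0303). That call did not survive the loss of CamK WT replicate 2, 3 or 5 or of SST WT replicate 3 or 5 (adjusted p 0.0551, 0.0572, 0.0741, 0.0801 and 0.0510). Removing the filter on low counts lost it too (adjusted p 0.0627), as did fitting the non-neuronal markers as a covariate (-0.19, adjusted p 0.540). The other 2 comparisons of Ptbp1 between WT populations missed the threshold (adjusted p 0.567 and 0.135), although Grik against SST passed it without Grik WT replicate 4 (-0.27, adjusted p 0.0418). Ptbp1 shares 437, 295 and 251 exonic bases with Gm17134, E130317F20Rik and Plppr3 on the opposite strand, so its low count is uncertain without the strand setting.

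Per length the Ptbp family summed to 17.4 ± 1.46 RPKM in CamK WT, then 21.3 ± 2.05 in Grik WT and 17.9 ± 1.47 in SST WT (SD, n = 4 each). Ptbp2 made up 70.7% ± 1.54, 80.4% ± 1.13 and 81.0% ± 1.69 of it. Ptbp3 made up 20.965% ± 2.003, 12.3% ± 0.514 and 9.12% ± 0.916, and Ptbp1 8.37% ± 0.635, 7.30% ± 1.35 and 9.91% ± 0.814. Ptbp2 per length was lower in CamK WT than in Grik WT (12.3 against 17.2 RPKM), and Ptbp3 was higher (3.67 against 2.63 RPKM). With the longest transcript as length these sums were 34.1 ± 2.61, 44.1 ± 4.37 and 37.3 ± 3.33 RPKM, and the Ptbp3 share was 11.7% ± 1.23, 6.51% ± 0.273 and 4.78% ± 0.519, so the levels depend on the length taken while CamK kept the highest Ptbp3 share and SST the lowest.

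Without SST WT replicate 2, the library low in Sst, 6 of 8 genes still passed between CamK WT and SST WT and 4 of 8 between Grik WT and SST WT, beside 56.9 and 54.4% of all genes tested in that fit. The log2 differences of Rbfox1 were then 1.02 and 1.24, those of Rbfox3 1.79 and 1.47, those of Nova1 -0.38 and -1.47 and those of Ptbp3 1.15 and 0.67, all past the threshold. Ptbp1 (-0.31, adjusted p 0.0284) and Ptbp2 (-0.25, adjusted p 0.049) passed between CamK and SST. Nova2 (-0.22) and Ptbp2 (0.24) were the 2 genes that left the Grik and SST comparison, in which Ptbp1 stood at -0.22 (adjusted p 0.118). Rbfox2 gave -0.01 for CamK against SST and 0.03 for Grik against SST, and Nova2 gave -0.03 for CamK against SST, none past the threshold. The Rbfox sum in SST WT was then 145 ± 4.46 RPKM with a Rbfox2 share of 33.2% ± 1.77, and the Nova1 share was 26.4% ± 4.06 (SD, n = 3).

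The libraries labelled cKO gave a second, separate set of libraries for the same population comparisons. There 6 of 8 genes differed between CamK and Grik (background 35.7%), 4 of 8 between CamK and SST (background 56.4%) and 6 of 8 between Grik and SST (background 57.9%). Of 17 calls among WT libraries, 15 were also made among the libraries labelled cKO in the same direction, out of 16 calls there. The matching share over all tested genes is not given here, so this count does not set the 8 genes apart from other genes. Rbfox3 in CamK was 3.23-fold its SST level (log2 fold change 1.69, SE 0.08, adjusted p 7.78e-15), Nova1 in CamK was 2.54-fold its Grik level (1.35, SE 0.10, adjusted p 6.69e-11) and Ptbp3 in CamK was 2.83-fold its SST level (1.503, SE 0.14, adjusted p 8.65e-10). Nova1 and Ptbp2 did not pass between CamK and SST in these libraries (log2 differences 0.01 and 0.04), and Nova2 passed between CamK and Grik (0.38, SE 0.09, adjusted p 0.002). In this last comparison 11 of 20 non-neuronal markers passed the test as lower in CamK, and with them as a covariate Nova2 differed by 0.16 (adjusted p 0.259) and Rbfox3 by 0.18 (adjusted p 0.232). Among the calls in CamK against Grik, that of Rbfox1 (-0.21, SE 0.07, adjusted p 0.0152) was lost without Grik cKO replicate 1 or 4 (adjusted p 0.0565 and 0.0735). Without CamK cKO replicate 4, Rbfox3 (main difference 0.24, adjusted p 0.0205) and Ptbp2 (-0.37, adjusted p 0.00508) no longer passed (adjusted p 0.127 and 0.0547). The Ptbp1 call between CamK and SST (-0.30, adjusted p 0.0336) was lost without CamK cKO replicate 4 or 5 or SST cKO replicate 5 or 7 (adjusted p 0.114, 0.145, 0.137 and 0.0513), with no filter on low counts (0.0753), with only the compared groups in the fit (0.121) and with the covariate (0.404). No difference between the WT and cKO-labelled population effects passed the test for any of the 8 genes, as the tests of the genotype effects below give.

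**Figure D3:**
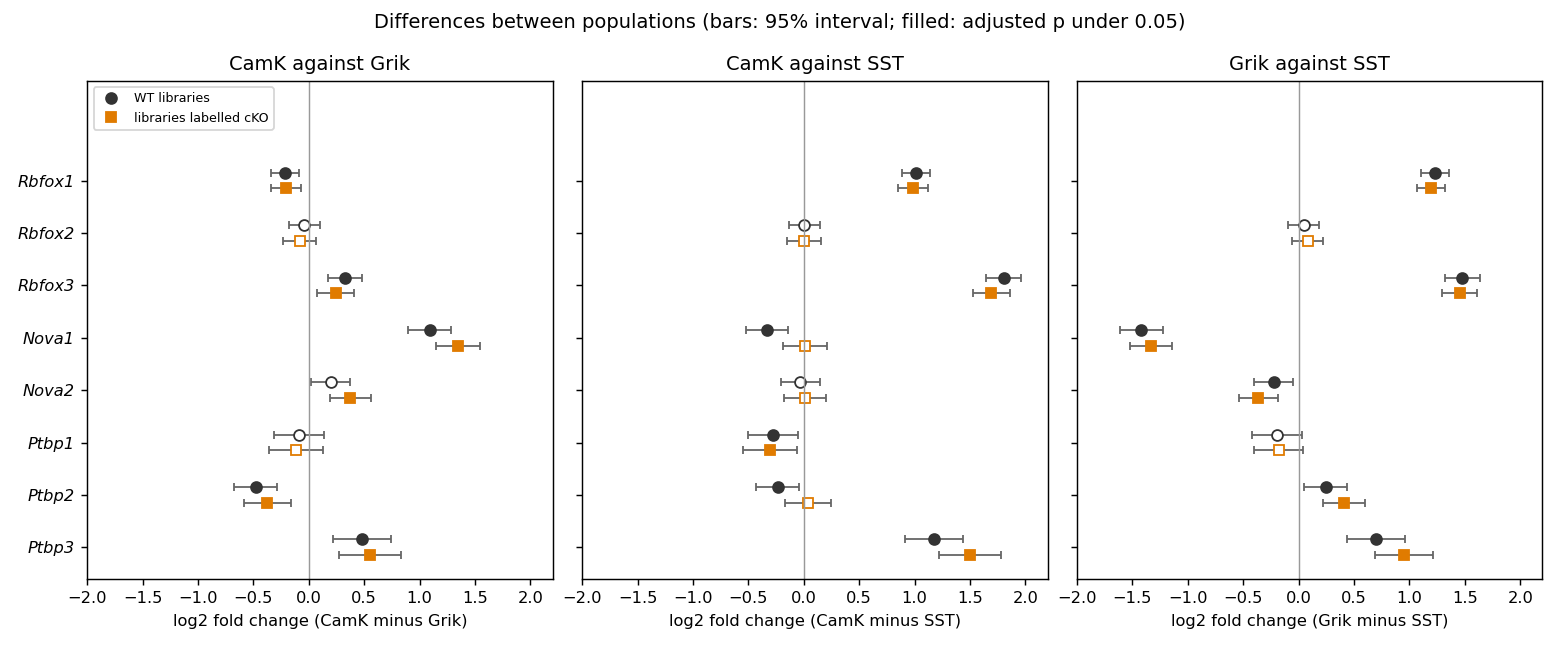
Log2 fold change of each gene (x axis) between populations, for WT libraries (circles) and libraries labelled cKO (squares); bars are 95% intervals and filled symbols have an adjusted p under 0.05. Rbfox1, Rbfox3 and Ptbp3 lie to the right in both comparisons with SST, Nova1 lies at 1.09 and 1.35 for CamK against Grik and at -1.42 and -1.34 for Grik against SST, and Rbfox2 lies between -0.08 and 0.08.

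The study's main comparison sets the libraries labelled cKO against WT within each population, and none of the 8 genes changed past the threshold in any of them. In edgeR 0 of 24 gene and population pairs passed (background 0.0106% in CamK, 0.0106% in Grik and 0.0106% in SST, that is 2 genes in each), 1 of 24 had an unadjusted p under 0.05 (7.05, 4.88 and 5.85% of all genes in CamK, Grik and SST), and DESeq2 and limma-voom also called 0. Those tools called more genes overall in most populations, with backgrounds of 0.103, 0.0842 and 0.0585% for DESeq2 and 0.0319, 0.207 and 0% for limma-voom in CamK, Grik and SST. The log2 fold changes ran from -0.24 to 0.25, and their 95% intervals together spanned -0.51 to 0.45. The smallest adjusted p was 0.665.

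That value belonged to Nova1 in CamK, which read 61.4, 61.5 and 70.4 CPM in the libraries labelled cKO and 49.6, 51.0, 57.8 and 58.3 CPM in WT. All 3 were above all 4, with a log2 difference of 0.25 (SE 0.10, unadjusted p 0.0170). In Grik Nova1 stood at 25.3 ± 1.09 CPM in the libraries labelled cKO and 25.5 ± 1.44 CPM in WT, and in SST at 63.9 ± 4.98 and 68.1 ± 10.8 CPM (SD, n = 4 each), with overlap in both. Groups without overlap occurred in 1 other pair, Nova2 in Grik, at 144, 145, 146 and 151 CPM in the libraries labelled cKO and 155, 157, 161 and 170 CPM in WT (log2 fold change -0.14, SE 0.08, adjusted p 0.992). Over all tested genes, groups did not overlap in 6.75% of genes in CamK, 4.59% in Grik and 2.70% in SST. Non-neuronal markers were above 0 in log2 fold change for 18 of 20 in CamK, 17 of 20 in Grik and 16 of 20 in SST, none past the threshold. With their mean log2 level as a covariate 0 of 8 genes passed in each population, with Nova1 in CamK at 0.30 (adjusted p 0.529) and Nova2 in Grik at -0.12 (adjusted p 0.979).

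In SST, Ptbp3 stood at 8.75, 9.20, 11.1 and 11.9 CPM in the libraries labelled cKO and at 11.3, 12.2, 12.4 and 12.7 CPM in WT. The groups overlapped, and the log2 fold change was -0.24 (SE 0.13, adjusted p 0.839). Ptbp2 in SST differed by -0.18 (SE 0.09, adjusted p 0.836), at 102 to 132 against 119 to 151 CPM. Without SST WT replicate 2 these values were -0.30 and -0.21, with adjusted p of 0.788 and 0.791. The Rbfox genes had the narrowest intervals: Rbfox1 differed by -0.02 in CamK (95% interval -0.15 to 0.12), -0.03 in Grik (-0.15 to 0.10) and 0.01 in SST (-0.11 to 0.13). Rbfox2 differed by -0.07, -0.02 and -0.06 and Rbfox3 by -0.05, 0.04 and 0.06 in the same order.

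Whether the genotype difference varied between populations was tested by subtracting the effects, which is also the test of whether the population difference varied with genotype. Of 24 such tests over the 8 genes, 0 passed in edgeR (background 0.00531% for CamK against Grik, 0% for CamK against SST and 0.0106% for Grik against SST), and 0 passed with DESeq2 (backgrounds 0.0634, 0.0901 and 0.0213%) or limma-voom (0.00531, 0.00531 and 0.0106%). The values ran from -0.14 to 0.34, and 1 had an unadjusted p under 0.05 (6.50, 7.85 and 3.86% of all genes in the same order of comparisons), Nova1 in CamK against SST (0.34, SE 0.13, adjusted p 0.604).

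**Figure D4:**
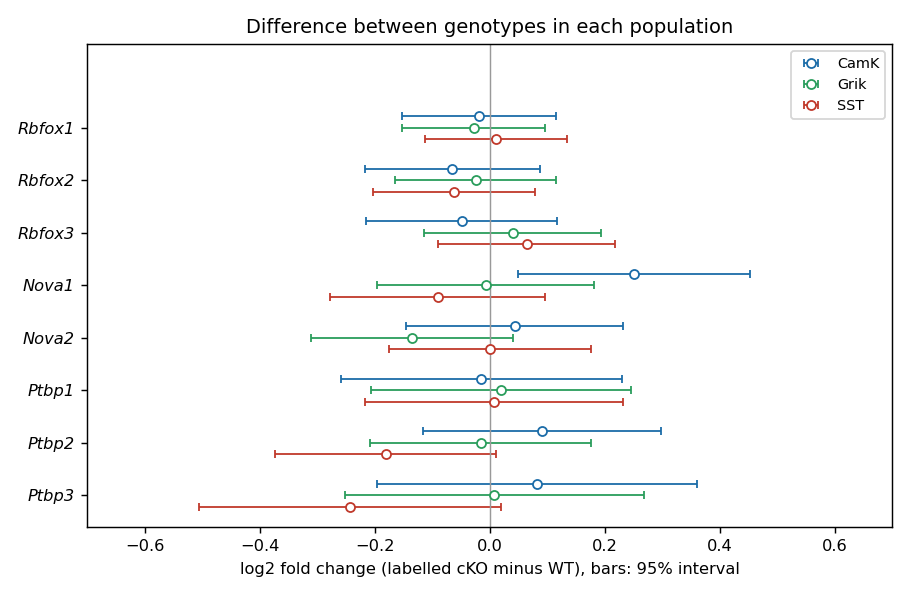
Log2 fold change of each gene (x axis) between libraries labelled cKO and WT in CamK, Grik and SST; points are estimates and bars 95% intervals, open because no adjusted p is under 0.05. The estimates lie between -0.24 and 0.25, and 1 interval, that of Nova1 in CamK, leaves out 0.

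The proteins that act with these families were examined as a list of 12 partners of the Rbfox and Ptbp proteins. Between CamK and SST, 7 were higher in CamK WT and 1 lower (background 29.5 and 30.5% of tested genes), with a median log2 fold change of 0.25 against -0.02 over all genes. Between Grik and SST 6 were higher and 1 lower (background 28.1 and 29.2%, median 0.20 against -0.03), and between CamK and Grik 2 were higher and 2 lower (background 20.9 and 21.1%, median -0.02 against 0.01). Raver2, a protein that binds Ptbp1, had the widest range, with 51.6 ± 7.44 CPM (CamK WT), 96.0 ± 14.3 CPM (Grik WT) and 8.11 ± 2.04 CPM (SST WT) (SD, n = 4 each). Its log2 fold change was 2.67 for CamK against SST (SE 0.18, adjusted p 1.09e-11) and -0.90 for CamK against Grik (SE 0.17, adjusted p 0.000132). Raver1, its paralog, and Hnrnpm, a member of the Rbfox complex, were 0.63 and 0.50 higher in CamK WT than in SST WT (adjusted p 3.44e-07 and 4.72e-05). Between CamK and Grik, Hnrnph1 was 0.37 higher (adjusted p 0.000418) and Hnrnpc lower, at -0.34 (adjusted p 0.00202). With the non-neuronal markers as a covariate the list held 1 call in place of 4 for CamK against Grik and 4 in place of 8 for CamK against SST. All genes gave 4209 calls in place of 7912 and 7001 in place of 11305 in the same fits.

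Of 25 other splicing regulators, 22 were tested. In WT, 7 were higher and 4 lower in CamK than in Grik, 11 higher and 6 lower in CamK than in SST, and 10 higher and 8 lower in Grik than in SST, beside backgrounds of 42.0, 60.1 and 57.3% of tested genes in either direction. Elavl2, a neuronal ELAV-like protein, stood at 54.9 ± 2.83 CPM in CamK WT, then 229 ± 18.2 in Grik WT and 344 ± 14.6 in SST WT (SD, n = 4 each), the opposite order to Rbfox3. Rbm24, a splicing factor of striated muscle, was at 28.4 ± 2.49 CPM in CamK WT, then 8.15 ± 1.09 in Grik WT and 4.58 ± 0.977 in SST WT. Celf5, a CELF family protein, was higher in CamK WT than in SST WT by 2.02 (SE 0.09, adjusted p 1.13e-15), and Khdrbs2, the paralog of the targeted gene, was higher in CamK WT than in Grik WT by 1.58 (SE 0.12, adjusted p 2.44e-10).

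Gene-level counts of genes known to carry exons regulated by the 3 families were also compared, and these do not measure the splicing of those exons. Of 10 Rbfox target genes, 2 were higher and 6 lower in CamK WT than in Grik WT (background 42.0% in either direction), and 4 higher and 2 lower than in SST WT (background 60.1%). Between Grik WT and SST WT 6 were higher and 2 lower (background 57.3%). Vamp1, a synaptic vesicle protein, stood at 138 ± 16.7 CPM in CamK WT and 395 ± 22.6 in SST WT (log2 fold change -1.52, adjusted p 3.68e-13), and Mef2d, a transcription factor, was 0.93 higher in CamK WT (adjusted p 3.14e-12). Cacna1c, a calcium channel subunit, and Camta1, a transcription activator, were lower in CamK WT than in Grik WT, with log2 fold changes of -1.27 and -0.89 (adjusted p 2.20e-09 and 5.07e-09). Of 8 Nova target genes, 3 were higher and 3 lower in CamK WT than in Grik WT and 4 higher and 3 lower than in SST WT (backgrounds 42.0 and 60.1%), and 4 were higher and 3 lower in Grik WT than in SST WT (background 57.3%). Dab1, the reelin pathway adaptor, was highest in CamK (180 ± 18.1 CPM in CamK WT, then 92.4 ± 5.89 in Grik WT and 31.0 ± 4.72 in SST WT). Glra2, a glycine receptor subunit, stood at 6.32 ± 1.03, 2.73 ± 0.116 and 23.9 ± 5.48 CPM, so SST was highest and Grik lowest, as for Nova1.

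Of 8 Ptbp target genes, 3 were higher and 1 lower in CamK WT than in Grik WT and 4 higher and 2 lower than in SST WT, where the backgrounds were 42.0 and 60.1%. In Grik WT 4 were higher and 3 lower than in SST WT (background 57.3%). Dlg4, which encodes PSD-95 and has an exon repressed by Ptbp proteins, stood at 1351 ± 146 CPM in CamK WT, then 940 ± 64.6 in Grik WT and 495 ± 19.6 in SST WT (SD, n = 4 each), so CamK exceeded SST by 1.45 on the log2 scale (adjusted p 8.66e-15). Gabbr1, a GABA-B receptor subunit, was 0.31 higher in CamK WT than in Grik WT (adjusted p 0.00219). Flna, an actin cross-linker, was lower in CamK WT than in SST WT (log2 fold change -1.39, SE 0.34, adjusted p 0.00126), as was Shtn1, a protein of axon outgrowth (-1.22, SE 0.12, adjusted p 3.31e-09). Without Grik WT replicate 5 the CamK and Grik comparison held 2 calls of this list in place of 4. Over all genes, leaving out 1 library gave 7129 to 7772 calls in this comparison in place of 7912. In the comparison of libraries labelled cKO with WT, no gene of the partner list or of the 3 target lists passed, and the 5 calls among the other splicing regulators were Khdrbs genes: Khdrbs3 lower in SST, and its paralogs Khdrbs1 and Khdrbs2 higher in CamK and in Grik. In Grik, where Khdrbs3 went against the label, Khdrbs2 stood at 21.1 ± 1.02 CPM in the libraries labelled cKO and 4.69 ± 0.654 CPM in WT (SD, n = 4 each, adjusted p 1.11e-10). The Khdrbs2 calls in CamK and Grik passed under every alternative run, whereas 4 of 14 in CamK and 5 of 15 in Grik lost that of Khdrbs1. In SST, Khdrbs2 was 0.58 higher on the log2 scale in the libraries labelled cKO and missed the threshold (adjusted p 0.3). There it passed under 3 of 15 alternatives: DESeq2 (adjusted p 0.0185), the replicate number as a block (0.0255) and without SST cKO replicate 7 (0.0141).

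Across libraries, correlations among the 8 genes changed when group means were removed. Over all 23 libraries Pearson's r of log2 CPM was 0.94 between Rbfox1 and Rbfox3 and 0.82 between Rbfox1 and Ptbp3, while after subtracting each group's mean it was -0.28 and 0.55. For Ptbp2 it was 0.42 with Rbfox1 and 0.11 with Ptbp3 over all libraries, and 0.77 and 0.74 after that step. Between Rbfox1 and Nova1 it was -0.71 before and 0.57 after. These values are descriptions over libraries that share population, depth and scaling. Among 10125 genes with a mean of at least 5 CPM, those most like Rbfox1 were Prickle2 and Exoc6 (r = 0.99 for both), and those most like Rbfox3 were Dgkz and Dnajb5 (r = 0.99 for both). Nova1 was most like Nr1d2 and Tunar (r = 0.98 for both), and Ptbp3 most like Diaph2 and Btbd10 (0.98 and 0.97). For Ptbp2 they were Ppp2ca and Atp6v1a (0.95 and 0.94), and for Nova2 Mtmr7 and Radil (0.91 and 0.90). Rbfox2 and Ptbp1, with the smallest ratios of highest to lowest group mean among the 8 genes (1.08 and 1.23), had looser neighbours. Rbfox2 reached 0.79 with Zdbf2 and 0.78 with Map2, and Ptbp1 0.81 with Mpst and 0.77 with Sfxn1. Nova2 and Ptbp2, with ratios of 1.30 and 1.39, had the closer neighbours given above.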

How the data were processed

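Polyadenylated RNA of 23 mouse hippocampal libraries was measured by RNA sequencing. The authors deposited whole-number read counts per Ensembl gene, 1 column per library, with 4 summary rows that name no gene, per the file headers. The submitters' processing notes name Trimmomatic, STAR and the build GRCm38; the sources used here give no versions, annotation release or strand setting. The summary rows held 12.4 to 18.4% of reads and stayed out of library sizes and tests. Totals in genes were 87612006 to 112993538 (median 91378465), so counting error is small for all but the lowest genes. All 33 replicate pairs differed by more than sampling noise (chi-square per degree of freedom 8.79 to 215).

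Titles gave the groups, and column names were matched to titles. Positions and exon lengths are from GENCODE M21 (GRCm38), which 45143 of 45706 IDs matched. Tests used edgeR 4.0.16 in R 4.3.3: filterByExpr over the 6 groups (18823 genes), TMM scaling, 1 fit of all 23 libraries (17 residual degrees of freedom), glmQLFit with robust estimation and glmQLFTest, with Benjamini-Hochberg adjustment within each of 12 comparisons and a threshold of 0.05. Log2 fold changes carry a standard error (SE). CPM and RPKM were computed here with TMM scaling, RPKM over the union of exons. The fit was run on simulated counts, whose outcome is not reported here. Alternatives tried were DESeq2 1.42.0, relative log expression scaling, every gene with a read, limma-voom (limma 3.58.1) with sample weights, the compared groups alone, the replicate number as a block, leaving out each replicate, and the mean log2 CPM of the non-neuronal markers as a covariate. Named genes were the 8 members, Khdrbs3 and population markers, up to 3 called genes of each list by absolute log2 fold change in each of CamK against SST and CamK against Grik (mean CPM at least 5), and the 2 genes most correlated with each member (mean CPM at least 5); some genes this rule names are not reported here. The members and lists were chosen with earlier results of these data known. Splicing and protein levels were not analysed here.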

Additional observations from a re-analysis of the deposited data

Results flagged for a closer look

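In groups of 4 libraries, a library was singled out when its gap to the nearest other exceeded Dixon's 95% critical share of the group's range. Of 40 such groups over the 8 genes, 2 met this rule, and chance gives about 1 in 20, that is 2. Rbfox2 in SST WT replicate 3 stood at 427 CPM, while the other 3 libraries lay between 373 and 377 CPM, a gap of 0.925 of the range. Ptbp3 in Grik WT replicate 3 stood at 23.2 CPM, while the other 3 lay between 18.01 and 18.8 CPM, a gap of 0.838 of the range.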

How the results depend on the processing

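Among gene-level results for WT populations over the alternatives, 331 of 360 kept their side of the threshold, 25 lost the call and 4 gained it; for libraries labelled cKO 328 of 344 kept it and 15 lost the call. Signs changed in 11 and 19 of these values, of which 11 and 18 were uncalled in both fits. The remaining one, Nova2 between CamK cKO and SST cKO, went from 0.01 to -0.31 (adjusted p 0.0458) with the non-neuronal covariate, and the cause was not tested. With that covariate the partner list of the Rbfox and Ptbp proteins held 1 call for CamK WT against Grik WT (4 without it) and 4 for CamK WT against SST WT (8 without it), and all genes gave 4209 calls in place of 7912 and 7001 in place of 11305; the causes were not tested. Leaving out 1 replicate moved the Ptbp target list between 2 and 4 calls for CamK against Grik. It moved the members called in WT to 5 to 6, 4 to 6 and 4 to 7 (CamK against Grik, CamK against SST, Grik against SST). All genes called in these fits came to 7129 to 7772, 10671 to 10985 and 10113 to 10471, beside 7912, 11305 and 10794 in the main fit. All 352 results of cKO against WT and all 536 differences of effects kept their side, with 0 members called, while 51 and 60 of them changed sign, uncalled in both fits. Without SST WT replicate 2, the list genes picked for naming kept 19 of 20 calls for CamK against SST (Hnrnpc lost it, adjusted p 0.091) and 21 of 21 for Grik against SST. Over all genes the calls for cKO against WT went from 2 in each population to between 1 and 4 (CamK), 1 and 9 (Grik) or 0 and 2 (SST) on leaving out 1 library. Scaling by relative log expression moved the median gene by less than 0.02.

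Some replicate numbers occur in both genotypes of a population, and the labels do not say whether same-numbered libraries belong together. Deviations of same-numbered libraries correlated between -0.10 and 0.13, and those of differently numbered libraries between -0.19 and 0.16. These few values cannot decide whether the numbers mark pairs or batches. With the replicate number as a block, 6, 6 and 5 members were called between WT populations (41.8, 59.2 and 53.5% of all tested genes in that fit), 5, 3 and 6 between libraries labelled cKO (30.8, 51.8 and 53.6%), and 0 for genotype or its differences. Under the block Nova2 passed between CamK WT and Grik WT (0.20, adjusted p 0.0311), while Ptbp2 in Grik WT against SST WT (0.18, adjusted p 0.157), Rbfox1 in CamK cKO against Grik cKO (-0.20, adjusted p 0.0604) and Ptbp1 in CamK cKO against SST cKO (-0.34, adjusted p 0.0663) did not.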
